A study of Homo sapiens with 15 samples.

Results

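Resistant T47D cells treated with erdafitinib together with 4-hydroxytamoxifen (4-OHT), called the combination here, were compared with the same cells on 4-OHT alone. The 6 libraries, 3 a side, were chosen by their labelled treatment out of the 15 RNA-seq libraries of the series. T47D is an established luminal breast cancer cell line with oestrogen receptor (ER), and the resistant cells are a single derivative line, TR01, which was kept in charcoal-stripped serum with 4-OHT. Resistant cells were seeded for 24 h, held for 48 h in charcoal-stripped, phenol red-free medium without the drugs, and then treated for 120 h. The combination group received 5 µM erdafitinib and 1 µM 4-OHT, and the 4-OHT group received 1 µM 4-OHT. The other resistant groups received 5 µM erdafitinib or vehicle (0.05% DMSO), and parental T47D cells, which are labelled sensitive to 4-OHT and were grown in full serum, received vehicle, each in 3 libraries. The labels call the replicates biological and say no more, so p-values rest only on how far these samples vary, which can be technical. The comparison addresses what an FGFR inhibitor changes in endocrine-resistant cells while the anti-oestrogen is present.

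The fibroblast growth factor receptors (FGFRs) are receptor tyrosine kinases that, when bound by a fibroblast growth factor, signal through adaptor proteins to the MAPK and PI3K pathways, and erdafitinib blocks the kinase of FGFR1 to FGFR4. 4-OHT is the active metabolite of tamoxifen and occupies ER in place of oestrogen. Interferon-stimulated genes encode antiviral proteins and are classically switched on when transcription factors activated by interferon bind a short promoter element, and tumour cells can express part of this programme without infection.

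The combination libraries held 27066311, 22304029 and 21856146 counts, and the 4-OHT libraries 28147510, 8990899 and 21360714. Values are given per library as CPM, counts scaled to a common library total, always in the order of replicates 1, 2 and 3. Markers of luminal epithelium were present in all 6 libraries, with the epithelial adhesion gene EPCAM at 99.0 to 158 CPM and ESR1, which encodes ERα, at 215 to 336 CPM. The luminal keratin genes KRT8, KRT18 and KRT19 had means of 385, 289 and 242 CPM in the combination, against 802, 511 and 330 CPM on 4-OHT. GATA3 and FOXA1 had means of 577 and 197 CPM in the combination, against 576 and 162 CPM on 4-OHT. Most genes that define other cell types were near 0: the leukocyte gene PTPRC had 3 counts over the combination libraries and 1 over the 4-OHT libraries, and CD3E, DCN and HBB had 0 in both. The fibroblast gene COL1A1 was an exception, with 1509 counts over the combination libraries and 1473 over the 4-OHT libraries. The summed level of all 16 markers of other cell types was 16.8 to 33.2 CPM in the combination and 23.0 to 37.1 CPM on 4-OHT. Libraries of the same group also differed along 1 axis that took up 68.2% of the variance inside groups and followed the GC content of the transcripts across genes (Spearman -0.805 over 11885 genes, with an arbitrary sign). Relative to the mean of all 15 libraries, the 20% of genes with the highest GC content were compared with the 20% with the lowest. The highest stood above the lowest by 0.65 (log2) in combination 3 and 0.69 in 4-OHT 1, and by -0.81 in combination 1. Relative to the group mean, the highest 20% deviated by 0.58 in combination 3, 0.42 in 4-OHT 1 and -0.49 in combination 1. GC content also moved with the comparison itself: across genes its Spearman correlation with the log2 fold change of the combination over 4-OHT was -0.277, and median GC was 46.8% in the genes called higher and 51.2% in those called lower, against 49.3% in all genes tested. With GC and length correction all 48 genes called higher and 50 of the 56 called lower were called again.

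In the combination, 19 of 43 interferon-stimulated genes rose and 0 fell, while 5 of 23 mesenchymal genes, 3 of 17 extracellular matrix genes, 4 of 15 YAP target genes and 2 of 10 basal epithelium genes fell and 0 rose. MX1, an antiviral GTPase gene, was 10.1-fold higher than on 4-OHT alone, and TIMP3, which encodes an inhibitor of matrix metalloproteinases, was 3.16-fold lower. At an adjusted p under 0.05 in the quasi-likelihood test of edgeR, 104 of 16210 genes (0.642%) passed and are called changed here. Of these, 48 were higher in the combination (0.296% of the genes tested) and 56 were lower (0.345%). The median log2 fold change was 1.67 among the 48 and -1.24 among the 56, and 35 of the 48 and 38 of the 56 changed at least 2-fold. In each of the 104, the 3 combination libraries lay wholly above or wholly below the 3 4-OHT libraries, as they did in 15.7% of all genes tested (8.29% above, 7.43% below). The count of calls was 44 without combination 3, 51 without combination 2, 57 without combination 1, 47 without 4-OHT 1, and 63 without 4-OHT 2 or 4-OHT 3. Of the 104 calls, 37 were kept in all 6 of these fits, 24 of them higher and 13 lower. DESeq2 called 288 genes, among them all 104.

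**Figure D1:**
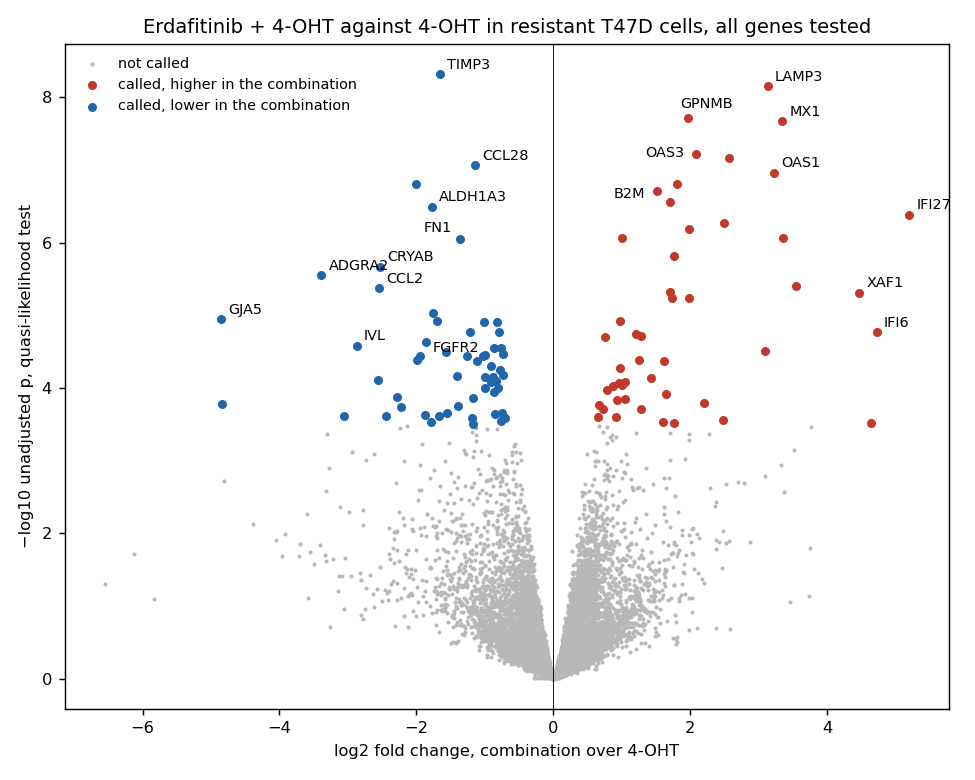
Log2 fold change of the combination over 4-OHT (x axis) against the unadjusted p on a -log10 scale (y axis) for the 16210 genes tested, each point 1 gene. The 48 genes called higher, in red, reach 5.19 at IFI27, and the 56 called lower, in blue, include TIMP3, the faller with the smallest p.

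Interferon-stimulated genes made up the largest group that rose. All 43 genes of the interferon list were tested, and 19 rose (44.2%, against 0.296% of all genes called higher) while 0 fell. The log2 fold change was positive in all 43, as in 51% of all genes tested, with a median of 1.99 against 0.01 over all genes. In 38 of the 43 the combination libraries lay wholly above the 4-OHT libraries, as in 8.29% of all genes. The mean log2 CPM of the 43 genes was 4.38, 4.14 and 4.68 in the combination libraries, against 2.45, 1.75 and 2.44 in the 4-OHT libraries. It was 3.55, 3.16 and 3.01 on erdafitinib alone and 2.34, 2.41 and 2.12 on vehicle, with the parental libraries lowest at 0.89, 0.54 and 1.08. The combination thus stood above every other group, without overlap.

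IFI27, which encodes a small mitochondrial protein induced by type I interferon (ENSG00000165949, chromosome 14, 94104836 to 94116698), had 48.2, 44.8 and 110 CPM in the combination, against 1.75, 2.81 and 1.21 CPM on 4-OHT. Its lowest combination library was far above its highest 4-OHT library, and the log2 fold change was 5.19 (SE 0.59; adjusted p = 0.000481). MX1 (ENSG00000157601, chromosome 21, 41420020 to 41470071) had 515, 345 and 457 CPM in the combination, against 48.1, 38.5 and 43.6 CPM on 4-OHT, which gives 3.34 on the log2 scale (SE 0.30; adjusted p = 8.69e-05). The groups again did not overlap. STAT2, a transcription factor gene of the interferon response, had a log2 fold change of 0.66 and missed the threshold (adjusted p = 0.051). IRF9, a DNA-binding factor gene of the same response, was at 1.15 (adjusted p = 0.481).

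The called members included sensors, effectors and modifying enzymes of the antiviral response. IFIH1, the cytosolic sensor of long double-stranded RNA also called MDA5, rose by 1.73 on the log2 scale. OAS1 (3.22), OAS2 (2.56) and OAS3 (2.08) encode synthetases of the messenger that activates RNase L, which degrades RNA. IFIT1, which encodes a protein that binds foreign RNA ends, had 406, 238 and 268 CPM in the combination, against 22.6, 23.3 and 32.6 CPM on 4-OHT (log2 fold change 3.54, SE 0.49), and its relative IFIT5 rose by 1.70. XAF1 (4.46) encodes a pro-apoptotic antagonist of XIAP, HERC6 (3.35) a ubiquitin ligase family member, and PARP9 (1.76) and DTX3L (1.70) the subunits of an ADP-ribosyltransferase and ubiquitin ligase complex. All of these calls were kept in each of the 6 fits without 1 library. IFI6 (4.72), which encodes a membrane protein active against flaviviruses, lost its call without 4-OHT 1 or 4-OHT 2 (log2 fold change 4.70 and 4.60, adjusted p 0.0571 to 0.0593). IFI44 (3.09) lost it without any one of the 4-OHT libraries or combination 1 (2.85 to 3.18), and SP100 (1.62), the gene of a nuclear body protein, without 4-OHT 1, 4-OHT 2 or combination 1 (1.44 to 1.61). RSAD2 (2.47), the gene of the antiviral enzyme viperin, and SAMD9L (2.20) lost it whichever library was left out (2.36 to 2.61 and 1.90 to 2.52). PARP14 (1.29), another ADP-ribosyltransferase gene, lost it in every such fit but that without combination 2 (1.09 to 1.37). Over the 6 fits, 13 to 17 members of the list were called higher.

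Genes outside that list with known interferon regulation also rose. LAMP3, which encodes a lysosomal membrane protein of mature dendritic cells that interferon induces, had 105, 74.4 and 121 CPM in the combination, against 12.9, 8.65 and 12.6 CPM on 4-OHT (log2 fold change 3.13, SE 0.26; adjusted p = 5.66e-05). DDX60, a helicase gene of RNA sensing, had 70.2, 40.0 and 58.3 CPM in the combination, against 9.36, 9.47 and 11.1 CPM on 4-OHT (2.49, SE 0.29; adjusted p = 0.000581). Neither gene's groups overlapped. B2M, the invariant light chain of MHC class I (ENSG00000166710, chromosome 15, 44711487 to 44718851), had 495, 511 and 715 CPM in the combination, against 207, 173 and 224 CPM on 4-OHT, which gives 1.51 on the log2 scale (SE 0.16; adjusted p = 0.000284). It was the 1 of 17 tested antigen presentation genes that passed, and 15 of the 17 had positive values (median 0.50). NLRC5, the gene of the class I transactivator, was at 3.00, 3.32 and 8.09 CPM in the combination, against 1.31, 0 and 1.12 CPM on 4-OHT (log2 fold change 2.42, adjusted p = 0.359). Combination 3, at the high-GC end of the axis above, was its highest library. The log2 fold change of NLRC5 was 2.50 with GC and length correction (adjusted p = 0.0374), 2.34 with the axis as a covariate (adjusted p = 0.00348) and 1.82 without combination 3 (adjusted p = 0.527). Further interferon-linked risers, chosen after their values were seen, were the phospholipid scramblase gene PLSCR1 (1.98) and SAMHD1 (0.97), which encodes a hydrolase of deoxynucleotides that restricts viruses. The 22 genes of type I, II and III interferons themselves had 1 count in all over the 3 combination libraries and 0 over the 3 4-OHT libraries.

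The promoters of these risers were read for the element named above, since it is the sequence that interferon-activated factors recognise. The search covered the 250 bases before and 50 after the start of each gene in RefSeq (GRCh38.p14), on both strands, for GAAANNGAAA, the core of the interferon-stimulated response element. It was found in 14 of the 40 called risers with a promoter in the table (35%), in 1 of the 40 called fallers (2.5%), in 315 of 11389 genes tested (2.77%) and in 996 of all 27305 promoters (3.65%). Within the interferon list it was found in 21 of 33 promoters (63.6%), and among the risers outside that list in 4 of 23 (17.4%). Stretches of 4 promoters of risers are given here from 5′ to 3′ on the gene's strand, with the matches in capitals. They lie at chr14:94110608-94110670 (plus strand) for IFI27, chr1:27672256-27672368 (minus strand) for IFI6, chr10:89392487-89392549 (plus strand) for IFIT1 and chr15:44711353-44711408 (plus strand) for B2M.
IFI27: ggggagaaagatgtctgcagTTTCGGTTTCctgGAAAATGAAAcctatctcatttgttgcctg
IFI6: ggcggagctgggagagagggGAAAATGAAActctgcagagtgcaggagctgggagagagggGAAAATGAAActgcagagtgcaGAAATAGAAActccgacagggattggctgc
IFIT1: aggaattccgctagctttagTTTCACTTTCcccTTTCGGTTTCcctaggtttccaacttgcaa
B2M: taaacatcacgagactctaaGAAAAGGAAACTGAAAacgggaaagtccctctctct
IFI27 held 2 matches, 1 on each strand, IFI6 held 3 on its own strand, IFIT1 held 2 on the opposite strand, and B2M held 2 that overlap. A match describes these letters and does not show that a factor was bound.

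**Figure D2:**
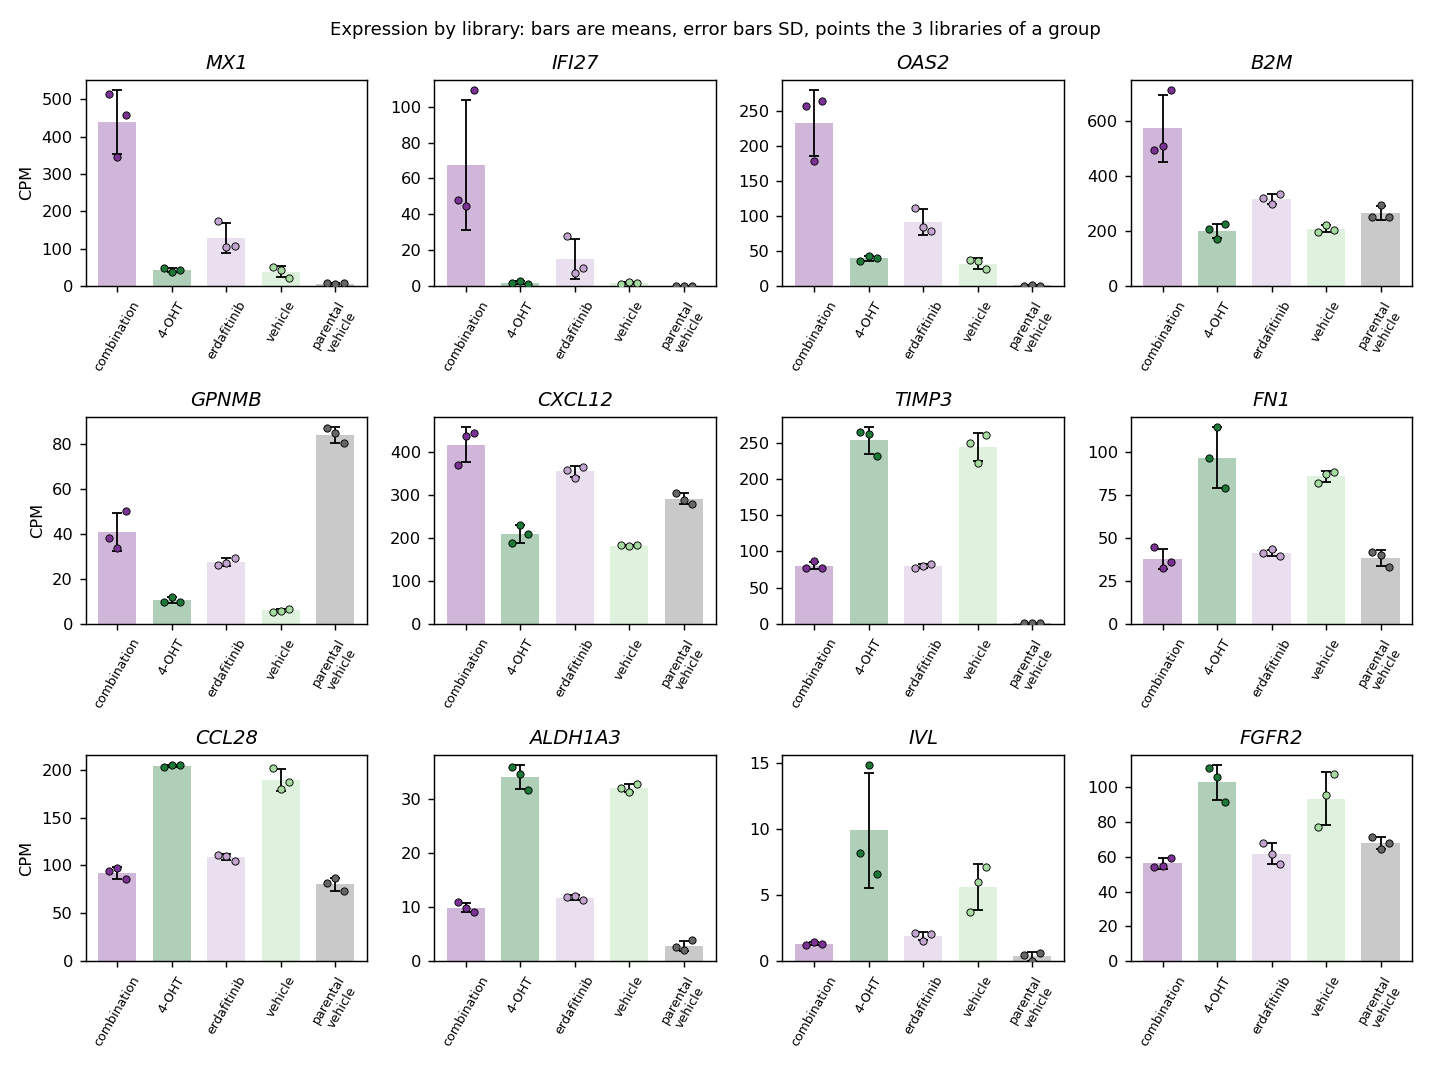
CPM (y axes, each from 0) of 12 genes in the 5 groups, with 3 points for the libraries, a bar for the mean and an error bar for the SD. In MX1, IFI27, OAS2 and B2M the combination libraries stand above all others, while in TIMP3, FN1, CCL28, ALDH1A3 and IVL the 2 groups with erdafitinib both stand below their counterparts without it.

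A minority of the extracellular matrix and mesenchymal genes tested were called lower, while most had negative values. The log2 fold change was negative in 16 of 17 matrix genes and 19 of 23 mesenchymal genes, against 48.9% of all genes. In 10 of the 17 and 12 of the 23 the combination libraries lay wholly below the 4-OHT libraries, against 7.43% of all genes. TIMP3 (ENSG00000100234, chromosome 22, 32801705 to 32863041) had 77.5, 86.6 and 77.3 CPM in the combination, against 266, 263 and 233 CPM on 4-OHT (log2 fold change -1.66, SE 0.13; adjusted p = 5.66e-05). FN1, the fibronectin gene, had 44.5, 32.8 and 35.8 CPM in the combination, against 96.9, 115 and 79.4 CPM on 4-OHT (-1.36, SE 0.16; adjusted p = 0.000758). Neither gene's groups overlapped, and both calls were kept in all 6 fits without 1 library. Of 23 tested genes of the mesenchymal list 5 fell and 0 rose (21.7%, against 0.345% of all genes called lower), with a median of -0.91, and of 17 tested matrix genes 3 fell and 0 rose, with a median of -0.94. The other mesenchymal fallers were the actin-binding tropomyosin gene TPM1 (-0.76), THBS1 (-0.74), which encodes the matrix glycoprotein thrombospondin 1, and the type III collagen gene COL3A1 (-2.28), which is also a fibroblast marker and stood at 35 counts over the combination libraries and 153 over the 4-OHT libraries. COL12A1, a collagen gene of the matrix list, was at 301, 178 and 179 CPM in the combination, against 507, 494 and 490 CPM on 4-OHT (-1.18, adjusted p = 0.0491). The TPM1 call was lost without 4-OHT 1 or combination 3 (-0.75 and -0.67), that of THBS1 without 4-OHT 1, 4-OHT 2, combination 2 or combination 3 (-0.75 to -0.63), that of COL3A1 without any library but 4-OHT 2 (-2.43 to -2.02), and that of COL12A1 without any but combination 1 (-1.19 to -1.05). Without 1 library, 2 to 4 mesenchymal and 2 to 3 matrix genes were called. In bulk RNA, fewer cells of a kind and less RNA per cell cannot be told apart.

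VIM, the vimentin gene often used as a mesenchymal marker, was low in all 6 libraries, at 1.85, 2.45 and 1.67 CPM in the combination, against 1.86, 0 and 1.49 CPM on 4-OHT (log2 fold change 0.72, adjusted p = 0.884). CDH1, which encodes the epithelial cadherin, was at 1030.2, 921 and 917 CPM in the combination, against 1203, 1363 and 1218 CPM on 4-OHT (-0.40, adjusted p = 0.318). The groups of CDH1 did not overlap, with the combination libraries the lower. None of 25 epithelial junction genes was called, and their median was -0.33. SNAI2, a transcription factor gene of the mesenchymal programme, was at -1.47 (adjusted p = 0.281) and the matrix genes TNC and SPARC at -1.13 (adjusted p = 0.0531) and -0.94 (adjusted p = 0.141). TGFB2, which encodes the TGF-beta ligand that drives this programme in many epithelia, had 26.5, 16.4 and 12.9 CPM in the combination, against 51.7, 68.4 and 46.6 CPM on 4-OHT (-1.58, SE 0.26; adjusted p = 0.0114). Its call was lost without 4-OHT 2, combination 2 or combination 3 (-1.49 to -1.36), and it was the only one of 17 TGF-beta pathway genes called, with the receptor gene TGFBR2 at -1.35 (adjusted p = 0.195) and the signal transducer gene SMAD3 at -0.55 (adjusted p = 0.26).

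YAP and TAZ are co-activators that bind TEAD factors and switch on CCN2, ANKRD1 and related genes when cells spread. Part of the YAP and TAZ targets fell in the combination. Of 15 tested genes of the YAP list 4 fell and 0 rose (26.7%, against 0.345% of all genes called lower), 14 had negative values, as did 48.9% of all genes, and the median was -0.72. ANKRD1, an ankyrin repeat gene, had 1.85, 1.14 and 0.471 CPM in the combination, against 5.50, 6.08 and 4.83 CPM on 4-OHT (log2 fold change -2.23, SE 0.45; adjusted p = 0.0354). CCN2, the connective tissue growth factor gene, had 0.118, 0.454 and 0.0428 CPM in the combination, against 2.27, 1.29 and 1.53 CPM on 4-OHT (-3.06, SE 0.63; adjusted p = 0.0425). Both were low in level but without overlap. AMOTL1 (-1.0), an angiomotin family gene, and TGFB2, described above, were the others. The call of ANKRD1 was lost without any library but combination 1 (-2.32 to -1.85), that of CCN2 without any but combination 2 (-3.21 to -2.59) and that of AMOTL1 without 4-OHT 1, 4-OHT 2, combination 2 or combination 3 (-0.98 to -0.88), so that 0 to 3 of the list were called without 1 library. CCN1 and AXL, further targets, were at -0.87 (adjusted p = 0.123) and -1.06 (adjusted p = 0.791).

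The TEAD core motif GGAATG, searched on both strands of the same windows, was found in 10 of 40 called fallers (25.0%), 4 of 40 called risers (10%), 1248 of 11389 genes tested (11%) and 3836 of all 27305 promoters (14.0%). In the YAP list it was found in 5 of 12 promoters (41.7%). The stretches of CCN2 (chr6:131951442-131951561, minus strand) and ANKRD1 (chr10:90921190-90921327, minus strand) are shown since these were the YAP targets with the largest fall, with the matches in capitals.
CCN2: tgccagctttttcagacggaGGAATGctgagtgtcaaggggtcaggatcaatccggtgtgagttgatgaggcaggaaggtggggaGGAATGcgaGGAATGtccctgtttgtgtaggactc
ANKRD1: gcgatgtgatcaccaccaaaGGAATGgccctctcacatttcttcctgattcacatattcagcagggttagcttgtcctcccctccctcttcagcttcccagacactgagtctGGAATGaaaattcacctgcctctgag
CCN2 held 3 matches and ANKRD1 held 2, all on the gene's strand. Neither searched motif contains the other, and a match here too does not show binding.

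Of the basal epithelium list 2 of 10 tested genes fell, and single genes known from keratinocytes fell beside them. IVL, which encodes involucrin, a cross-linked envelope protein of keratinocytes, had 1.26, 1.45 and 1.28 CPM in the combination, against 8.19, 14.8 and 6.60 CPM on 4-OHT (log2 fold change -2.87, SE 0.47; adjusted p = 0.0101). PADI3 (-1.68) and PADI2 (-1.40), which encode enzymes that convert arginine to citrulline in keratinocyte and other proteins, and FAT2 (-1.71), a protocadherin gene of squamous epithelia, were chosen after their values were seen. MIR205HG, the host transcript of a microRNA of basal epithelium and chosen in the same way, had 25.4, 24.7 and 22.1 CPM in the combination, against 46.2, 52.3 and 47.3 CPM on 4-OHT (-1.01, adjusted p = 0.00589). The combination libraries lay wholly below in each of these 5 genes, as in all 56 genes called lower, from which they were picked. In the basal list all 10 tested genes had negative values (median -0.59), as did 48.9% of all genes. The 2 that fell (20%, against 0.345% of all genes called lower) were TRIM29 (-1.55), which encodes a basal cell TRIM protein, and the myosin light chain kinase gene MYLK (-0.84). ACTA2, the smooth muscle actin gene, was at 385, 492 and 413 CPM in the combination, against 1089, 1175 and 928 CPM on 4-OHT (-1.31, adjusted p = 0.0877). The calls of FAT2 and MIR205HG were kept in all 6 fits without 1 library. The IVL call was lost without any one of the combination libraries (-2.94 to -2.84), that of MYLK without any library but 4-OHT 2 (-0.88 to -0.77), and those of PADI3 (-1.92 to -1.48), PADI2 (-1.52 to -1.29) and TRIM29 (-1.67 to -1.47) whichever was left out, leaving 0 or 1 basal list gene called.

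Other fallers with large changes encoded secreted factors, enzymes and surface proteins. CCL2, a chemokine that attracts monocytes, had 2.64, 2.54 and 2.06 CPM in the combination, against 13.4, 17.1 and 12.1 CPM on 4-OHT (log2 fold change -2.55, SE 0.32; adjusted p = 0.00285). CCL28, a chemokine of mucosal epithelia, had 94.5, 97.5 and 85.4 CPM in the combination, against 203, 205 and 204 CPM on 4-OHT (-1.14, SE 0.11; adjusted p = 0.0002). These were the 2 of 14 tested innate sensing and NF-kB genes that were called, in the opposite direction to the interferon genes, and the list median was -0.10. ALDH1A3, which makes retinoic acid from retinaldehyde, had 10.9, 9.77 and 9.16 CPM in the combination, against 36.0, 34.7 and 31.7 CPM on 4-OHT (-1.78, SE 0.20; adjusted p = 0.000398). CRYAB, a small heat shock protein gene, had 3.23, 3.00 and 2.83 CPM in the combination, against 20.4, 15.3 and 17.0 CPM on 4-OHT (-2.54, SE 0.33; adjusted p = 0.00165). Each was the only call in its list, of 10 retinoid genes and of 12 heat shock genes. ADGRA2 (-3.39), the gene of an adhesion receptor that aids WNT signalling, and PTGS1 (-1.76), which encodes cyclooxygenase 1, also fell, and their calls, like those of CCL2, CCL28, ALDH1A3 and CRYAB, were kept in all 6 fits. The scaffold protein gene NEDD9 (-1.99) lost its call without 4-OHT 1, combination 1 or combination 3 (-2.07 to -1.70), and the sulfatase gene SULF1 (-1.87) and ANKFN1 (-1.95) without combination 2 or combination 3 (-1.74 to -1.64 and -1.95 to -1.71). XKR7 (-1.87) and TMEM40 (-1.79) lost it whichever library was left out (-2.09 to -1.59 and -2.02 to -1.57).

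Below the expression level set for the named genes, and chosen after its values were seen, GJA5, the connexin 40 gene, fell by 4.85 on the log2 scale (SE 0.74; adjusted p = 0.00589). It was at 0.315, 0.182 and 0 CPM in the combination, against 3.82, 7.72 and 3.72 CPM on 4-OHT, and its call was kept in all 6 fits without 1 library. The TCIM gene, whose product is a regulator of WNT signalling and chosen in the same way, had 1 count over the combination libraries and 35 over the 4-OHT libraries, a ratio of 0.0239 with a 95% counting interval of 0.000588 to 0.142. Its call was lost without any library but 4-OHT 2 (adjusted p 0.0919 to 0.156).

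Among the genes of the drug's own pathway 1 receptor gene was called. FGFR2 (ENSG00000066468, chromosome 10, 121478332 to 121598458), which encodes a receptor that erdafitinib inhibits, had 54.1, 54.8 and 59.6 CPM in the combination, against 111, 106 and 91.6 CPM on 4-OHT (log2 fold change -0.87, SE 0.14; adjusted p = 0.0104). The groups did not overlap, and the call was lost without 4-OHT 1, combination 1 or combination 2 (-0.86 to -0.81). FGFR1 was at 38.3, 41.7 and 60.3 CPM in the combination, against 74.0, 53.2 and 61.3 CPM on 4-OHT (-0.43, adjusted p = 0.721), with overlap. FGFR3 (-0.30) and FGFR4 (0.17) were at 3.91 to 5.95 and 3.70 to 11.8 CPM in the combination, against 4.44 to 7.05 and 3.39 to 9.25 CPM on 4-OHT, and also overlapped. FGFR2 was the 1 call among 18 tested FGFR system genes. Of the ligand genes FGF2, FGF7 and FGF19 had 0 counts in all 6 libraries, and FGF1 had 8 counts over the combination libraries and 25 over the 4-OHT libraries.

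None of 24 tested MAPK feedback and output genes was called at the RNA level, and the list median was 0.09. Their log2 fold changes ran from -1.08 (SPRED3, adjusted p = 0.132) to 1.52 (ETV4). The combination libraries lay wholly above in 2 of the 24 and wholly below in 3, against 8.29% and 7.43% of all genes. DUSP6, the ERK phosphatase gene, was at 3.43, 3.91 and 3.25 CPM in the combination, against 3.92, 1.75 and 3.63 CPM on 4-OHT (log2 fold change 0.16, 95% interval -0.48 to 0.80). SPRY4, a feedback inhibitor gene, was at 2.96, 3.77 and 3.68 CPM, against 3.34, 7.13 and 3.44 CPM (-0.39), and the ETS factor genes ETV4 and ETV5 had log2 fold changes of 1.52 (adjusted p = 0.751) and 0.25 (adjusted p = 0.955). The groups of DUSP6, SPRY4, ETV4 and ETV5 overlapped. CCND1, the cyclin D1 gene and a common endpoint of MAPK and ER signalling, was at 284, 272 and 267 CPM in the combination, against 347, 465 and 352 CPM on 4-OHT (-0.50, SE 0.16; adjusted p = 0.309), without overlap. CDKN2B, which encodes the cyclin-dependent kinase inhibitor p15, had 34.6, 35.2 and 22.6 CPM in the combination, against 62.3, 66.9 and 54.7 CPM on 4-OHT (-0.99, adjusted p = 0.0226), a call kept without 4-OHT 3 and lost without any other library (-1.10 to -0.80). It was lost with GC and length correction too (-0.83, adjusted p = 0.217). BTG2, an antiproliferative gene that p53 induces, fell by 0.87 on the log2 scale (adjusted p = 0.0251), a call lost whichever library was left out (-0.95 to -0.81).

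Cell cycle genes leaned upwards without any single call in the main fit. All 29 tested S phase genes had positive log2 fold changes (median 0.39), as did 24 of 26 G2 and mitosis genes (median 0.28), against 51% of all genes. The mean log2 CPM of the S phase genes was 5.39, 5.49 and 5.45 in the combination, against 5.12, 4.95 and 5.10 on 4-OHT. PCNA, the replication clamp gene, was at 111, 123 and 81.8 CPM in the combination, against 67.7, 49.1 and 74.9 CPM on 4-OHT (0.72, adjusted p = 0.249). CLSPN, the gene of the checkpoint mediator claspin, was at 0.78 (adjusted p = 0.228) and MCM4, a replicative helicase gene, at 0.47 (adjusted p = 0.269). With GC and length correction CLSPN passed (0.67, adjusted p = 0.0184), while MCM4 (adjusted p = 0.0956) and PCNA (adjusted p = 0.119) did not. MKI67, the proliferation marker gene, was at 255, 159 and 153 CPM in the combination, against 129, 157 and 136 CPM on 4-OHT (0.43, adjusted p = 0.722), with overlap. The same list means on erdafitinib alone were 5.65, 5.53 and 5.46, against 4.89, 5.32 and 5.08 on vehicle.

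ER target genes showed the same lean. Of 30 tested, 24 had positive values (median 0.31), CXCL12 rose and CA12 fell. CXCL12, a chemokine gene that ER induces in breast cancer cells, had 371, 438 and 445 CPM in the combination, against 189, 231 and 208 CPM on 4-OHT (log2 fold change 1.00, SE 0.12; adjusted p = 0.000758), without overlap and kept in all 6 fits. CA12, the carbonic anhydrase XII gene, had 344, 298 and 290 CPM in the combination, against 497, 558 and 506 CPM on 4-OHT (-0.74, adjusted p = 0.0117), a call lost without 4-OHT 2, combination 2 or combination 3 (-0.71 to -0.69). GREB1, an ER co-activator and target, was at 22.3, 18.7 and 27.3 CPM in the combination, against 12.1, 16.6 and 11.3 CPM on 4-OHT (0.79, adjusted p = 0.072). PGR, the progesterone receptor gene, was at 0.52 (adjusted p = 0.559) and ESR1 at 0.41 (adjusted p = 0.399). The groups of all 3 did not overlap, which was so for 15.7% of all genes tested. MYB, another ER target, was at 0.85 (adjusted p = 0.0591).

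Single genes of lysosomal, sterol and amino acid programmes also rose. GPNMB, a lysosomal glycoprotein gene under MiT/TFE transcription factors, had 38.0, 33.9 and 50.3 CPM in the combination, against 9.70, 12 and 9.76 CPM on 4-OHT (log2 fold change 1.96, SE 0.17; adjusted p = 8.69e-05). RRAGD, which encodes a Rag GTPase that brings mTORC1 to lysosomes, had 17.5, 17.4 and 18.4 CPM in the combination, against 7.57, 6.55 and 7.86 CPM on 4-OHT (1.27, adjusted p = 0.00797). Both calls were kept in all 6 fits, and the median of the 17 tested MiT/TFE genes was 0.21. The list also held TRPM8, a cold-sensing ion channel gene with no established place among MiT/TFE targets, which fell by 0.75 on the log2 scale, a call lost whichever library was left out (-0.78 to -0.69). None of 28 lysosome genes was called (median 0.10). INSIG1, the sterol-regulated retention factor gene, rose by 0.65 (adjusted p = 0.0427), alone of 23 cholesterol synthesis genes, and its call was kept without combination 1 and lost without any other library (0.54 to 0.68). PSAT1, a serine synthesis gene under ATF4, rose by 0.73 (adjusted p = 0.0366), alone of 21 ATF4 and unfolded protein response genes. It lost its call without 4-OHT 1, 4-OHT 3, combination 2 or combination 3 (0.64 to 0.72). ATF4 itself was at 127, 162 and 145 CPM in the combination, against 97.9, 102 and 103 CPM on 4-OHT (0.52, adjusted p = 0.167), and its target DDIT3 at 1.08 (adjusted p = 0.109). No gene was called among those of luminal identity, FOXO and PI3K feedback, the EGFR family, immediate early response, the BCL2 family, drug metabolism or other kinase targets of erdafitinib, of which 3 of 8 were expressed enough to test.

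**Figure D3:**
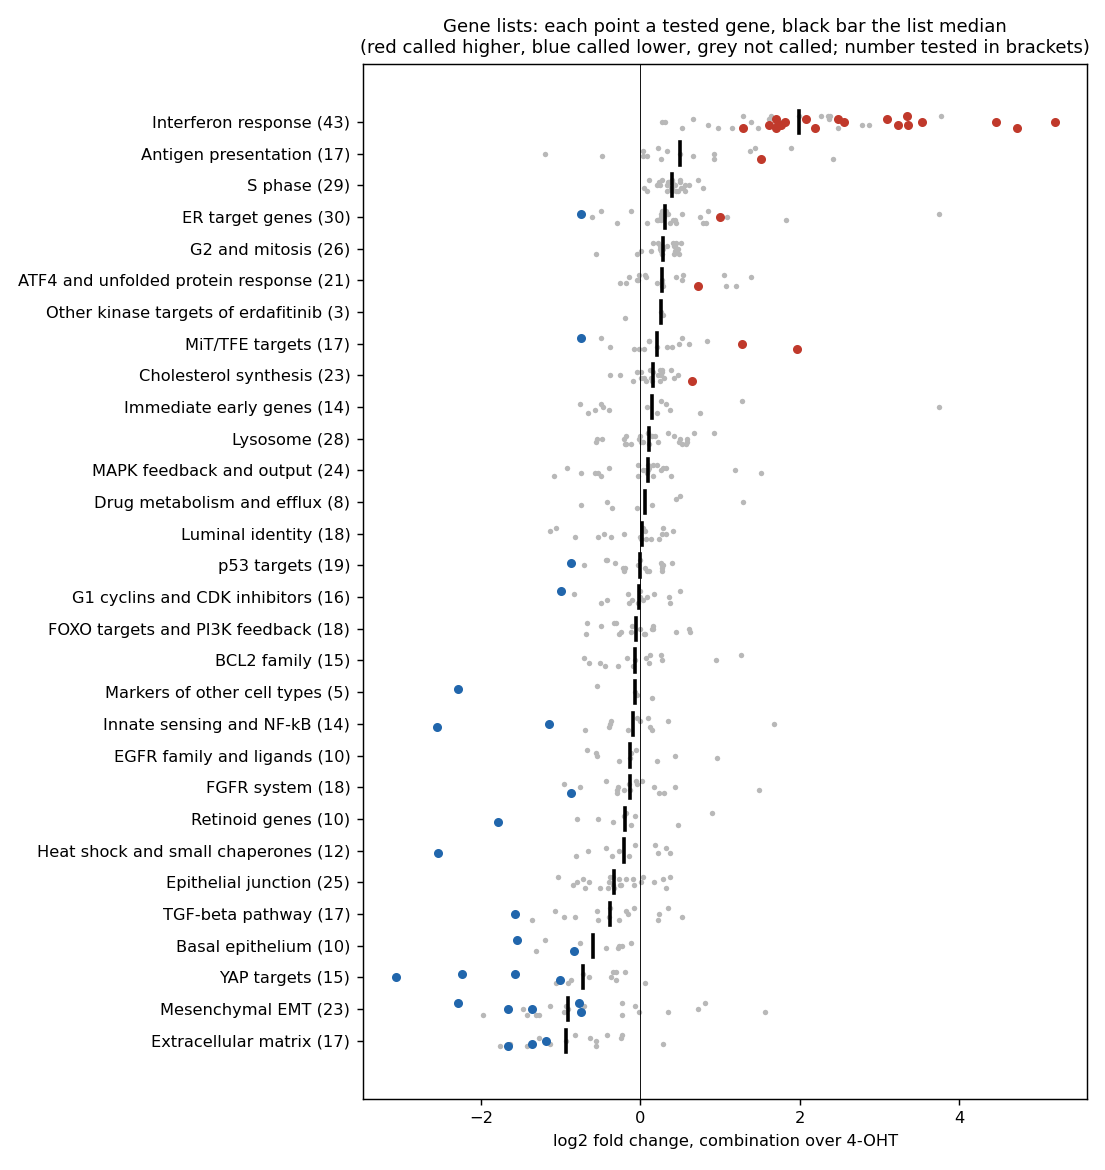
Log2 fold change of the combination over 4-OHT (x axis) for every tested gene of the 30 lists (rows), with the list median as a black bar. Interferon genes reach 5.19 and have a median of 1.99, while the matrix, mesenchymal and YAP lists have medians of -0.94, -0.91 and -0.72.

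Erdafitinib without 4-OHT was set beside the combination, using the resistant libraries on erdafitinib and on vehicle, which share no library with the comparison above. All 48 risers were also higher on erdafitinib than on vehicle, and all 56 fallers were lower, while 67.8% of all genes tested had the same sign in both comparisons. GC content moved with both, at a Spearman correlation with the log2 fold change across genes of -0.277 for the combination over 4-OHT and -0.346 for erdafitinib over vehicle, and its part in the shared sign was not tested. The median log2 fold change there was 0.83 for the risers and -0.91 for the fallers. Of the risers 7 were called on erdafitinib and of the fallers 8, and these were all 15 calls in that comparison (0.0925% of genes tested, 0.0432% called higher and 0.0494% lower). The 3 libraries a side did not overlap, in the same direction, for 43 risers and 52 fallers, against 6.01% and 5.56% of all genes. At an unadjusted p under 0.05, 40 risers and 54 fallers passed in the same direction, as did 2.15% and 2.17% of all genes. The count of 15 was 2 without vehicle 3, erdafitinib 1 or erdafitinib 3, 3 without erdafitinib 2, 5 without vehicle 2, and 0 with only those 2 groups fitted.

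The size of the erdafitinib effect with 4-OHT was then tested against its size without 4-OHT. No gene passed in edgeR: 0 of 16210 were called, with 134 at an unadjusted p under 0.05 (0.827%) and a smallest adjusted p of 0.999973. Those 134 are fewer than the fraction of 0.05 expected where no effect differs. The test was thus conservative, and 0 calls does not show that the effects were equal. DESeq2 called 1 gene, LAMP3 (1.84, adjusted p = 0.0165). LAMP3 also had the smallest p in edgeR. Its erdafitinib effect was 3.13 with 4-OHT and 1.29 without, from 35.8, 26.9 and 33.1 CPM on erdafitinib and 16.1, 13.5 and 9.71 CPM on vehicle, a difference of 1.84 (SE 0.34, unadjusted p = 8.67e-05). The next smallest p were those of MX1, with effects of 3.34 and 1.74 (difference 1.59, 95% interval 0.76 to 2.43), B2M, with 1.51 and 0.61 (0.90, 0.42 to 1.38), DDX60, with 2.49 and 1.00 (1.49, 0.66 to 2.33), and the antisense transcript ZNF710-AS1, with -2.01 and -0.91 (-1.10, -1.71 to -0.48). For all 43 interferon genes the difference was positive, with a median of 1.08, against 56.7% of all genes and a median of 0.05. That list was written with earlier results of these data known, and 19 of the 43 are among the risers. The 43 genes were also read in the same libraries and are not separate observations. The 48 risers had a median difference of 0.92 and the 56 fallers -0.42, but these genes were picked by the combination effect, which is one side of the difference.

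**Figure D4:**
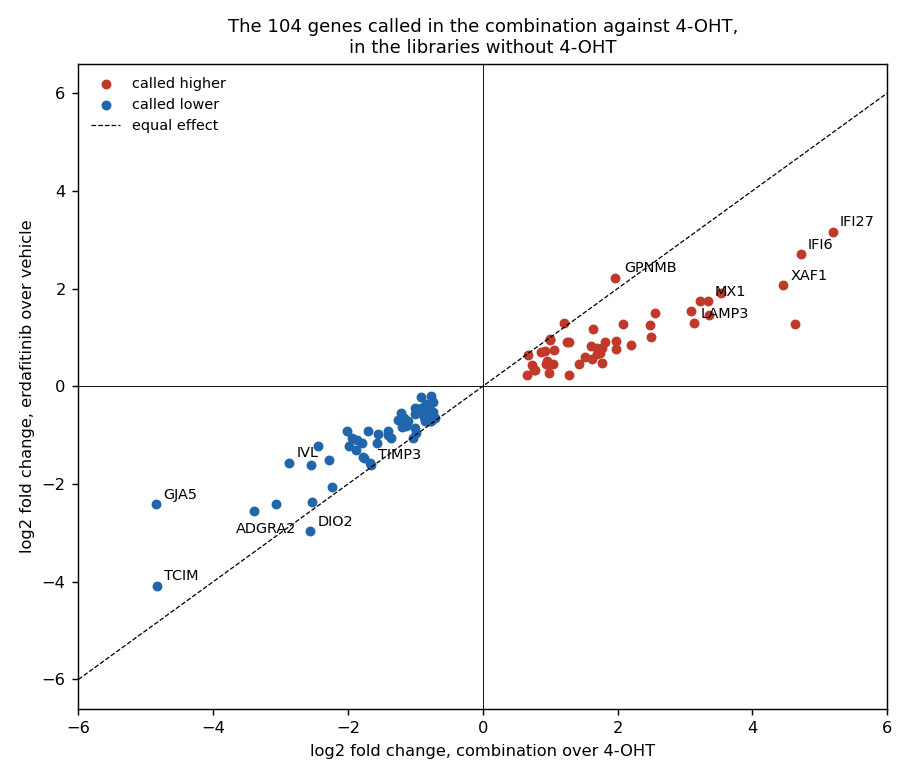
The 104 called genes, with the log2 fold change of the combination over 4-OHT (x axis) and of erdafitinib over vehicle (y axis), and a dashed line where both are equal. All points keep their sign, and 46 of the 48 risers lie below the line.

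For other called genes the estimated difference was nearer 0. TIMP3 fell by 1.66 on the log2 scale with 4-OHT and by 1.61 without (difference -0.05, 95% interval -0.44 to 0.34). It was at 77.4, 80.3 and 83.2 CPM on erdafitinib alone, against 250, 223 and 262 CPM on vehicle. CXCL12 differed by 0.04 (-0.33 to 0.40), GPNMB by -0.26 (-0.77 to 0.25) and CRYAB by -0.18 (-1.14 to 0.77). FGFR2 had effects of -0.87 and -0.59 (difference -0.28, -0.71 to 0.15), and the second of these was not called. Within these intervals a moderate difference could not be told from none.

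The called genes were also set against the resistant state, that is, resistant against parental cells on vehicle. These libraries lie outside the 2 groups compared above but share the filter and the estimate of spread. Between resistant and parental cells 3220 genes were higher in resistant cells (19.9% of genes tested) and 2598 lower (16%). Of the 56 fallers, 44 were higher in resistant cells, 5 were lower and 7 were not called, with a median log2 fold change of 1.94. A fall can be called only in genes that resistant cells express, so part of this lean was set in advance. Of the 3220 genes, 44 were called lower in the combination and 16 higher, with a median log2 fold change over 4-OHT of -0.08. Of the 2598, 5 were called lower and 18 higher, with a median of 0.08. Of the 48 risers 16 were higher in resistant cells, 18 were lower and 14 were not called, with a median of 0.19. TIMP3 had 250, 223 and 262 CPM in resistant cells on vehicle, against 1.09, 1.11 and 0.764 CPM in parental cells, and its level was 77.3 to 86.6 CPM in the combination, against 233 to 266 CPM on 4-OHT. PTGS1 had 28.2, 25.8 and 43.8 CPM in resistant cells on vehicle, against 0.252, 0 and 0.0728 CPM in parental cells. CCL2 and COL3A1 had 0 counts in the parental libraries. FN1 was at 82.4, 87.4 and 88.4 CPM in resistant cells on vehicle, against 41.9, 39.9 and 32.9 CPM in parental cells, and its 32.8 to 44.5 CPM in the combination overlapped the parental range.

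The risers split by group. The 43 interferon genes had a median log2 fold change of 1.39 in resistant against parental cells. OAS2 was at 36.8, 36.2 and 23.7 CPM in resistant cells on vehicle, against 0.587, 1.59 and 0.728 CPM in parental cells, and its 179 to 264 CPM in the combination lay above both. GPNMB was at 5.26, 5.72 and 6.57 CPM in resistant cells on vehicle, against 87.0, 85.0 and 80.3 CPM in parental cells, and the combination level of 33.9 to 50.3 CPM lay between them. LAMP3 was likewise lower in resistant cells, at 16.1, 13.5 and 9.71 CPM on vehicle, against 91.1, 86.9 and 64.3 CPM in parental cells, and its 74.4 to 121 CPM in the combination overlapped the parental range. SULF1 went the other way among the fallers, at 4.64, 3.67 and 4.00 CPM in resistant cells on vehicle, against 298, 240 and 196 CPM in parental cells. Parental and resistant cells also differed in their growth medium, so the resistant state and the medium cannot be told apart.

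**Figure D5:**
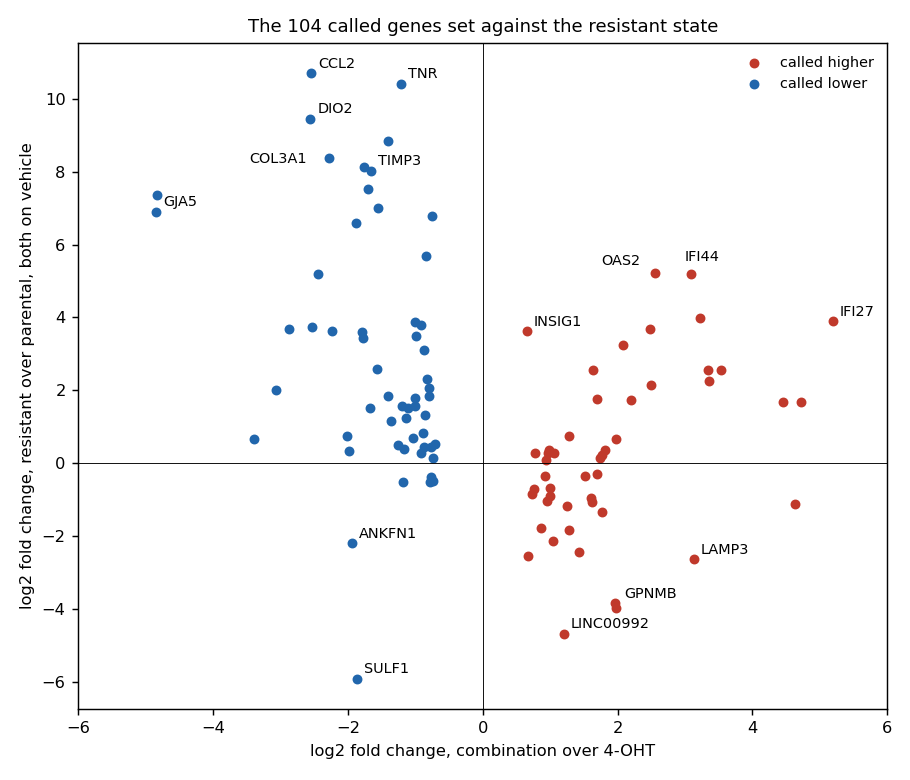
The 104 called genes, with the log2 fold change of the combination over 4-OHT (x axis) and of resistant over parental cells on vehicle (y axis). Most fallers, in blue, lie above 0 on the y axis (44 of 56 called higher in resistant cells), and the risers, in red, lie on both sides. Genes with few or no counts in a group are drawn at their fitted value, which is no bound.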

How the data were processed

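Total RNA of 15 libraries was sequenced from a stranded, paired-end protocol, per the labels' protocols. The deposited files hold raw read counts per gene for 60664 Ensembl genes, made by the authors with featureCounts 2.0.1 in reverse-stranded, paired mode on Ensembl 104, per the file headers. Per the submitters' processing notes the tools were HISAT2 2.1.0, GRCh38 and featureCounts 1.4.6-p1. Totals ran from 6946684 to 28717380 counts per library, with a median of 22304029. Genes passing filterByExpr (16210) were scaled by TMM and fitted in R 4.3.3 with edgeR 4.0.16 (limma 3.58.1), with 1 mean per group over all 15 libraries, no block and 10 residual degrees of freedom. Calls are Benjamini-Hochberg adjusted p under 0.05 in the quasi-likelihood test over all genes, and the common biological coefficient of variation was 30.8%. CPM use TMM-scaled totals, and list means are of log2 CPM with a prior count of 2. SEs were taken from the log2 fold change and its F statistic. The counting interval of a ratio covers counting error only, at 95%.

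Named genes were, in each direction, the 12 protein-coding calls of greatest log2 fold change whose groups did not overlap and whose mean log2 CPM reached 1, a set of receptor and marker genes, called list members with up to 3 others of smallest p where fewer than 3 were called, and the 5 smallest p of the difference between erdafitinib effects. Genes outside this rule are named as context or as chosen after their values were seen. IRF9, STAT2, SNAI2, SPARC, TNC, CCN1, AXL and the ligand genes are such context. The members and gene lists were chosen with earlier results of these data known. The procedure was tested on simulated data with known changes. Alternatives were DESeq2 1.42.0, other scaling and filters, GC and length offsets, a replicate block, a 1.5-fold test, thinned counts, left-out libraries and a library axis as covariate, the last chosen after seeing the data. The labels state no block, so replicate numbers were not taken as pairs in the main fit. Promoters came from RefSeq (GRCh38.p14), and gene types and GC content from GENCODE 29. Some list members are counted in the totals of their list but are not reported here by name.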

Additional observations from a re-analysis of the deposited data

How the results depend on the processing

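All 104 called genes kept their direction in every alternative fit that tested them, and TCIM was not tested in all of these fits. In place of 104 calls in the combination against 4-OHT, there were 288 with DESeq2, 422 with GC and length correction (98 of the 104 among them, with 6 fallers lost), 68 with only those groups fitted, 33 against a 1.5-fold change (21 higher, 12 lower), 51 with counts thinned to the lowest total, 63 without the library under 50% of the median total (4-OHT 2), and 44 to 63 when 1 library was left out. With combination 2 left out 31 of 51 calls were higher, and with combination 3 left out 28 of 44. With the within-group axis as a covariate, chosen after seeing the data, 1402 genes were called, among them all 104. Some named genes that missed the main threshold passed with GC and length correction. They included SPARC (adjusted p = 0.000671), TNC (0.00139), GREB1 (0.00151), MYB (0.00229), STAT2 (0.00256), ACTA2 (0.00376), DDIT3 (0.0192), TGFBR2 (0.041) and CDH1 (0.0499). ESR1 (0.102), PGR (0.145) and ATF4 (0.142) did not pass. For erdafitinib against vehicle, in place of 15 calls, the counts were 87 with DESeq2, 26 with no filter, 123 with GC and length correction, 0 with only those groups fitted, 2 against a 1.5-fold change, 5 with thinned counts, 600 with the axis and 2 to 17 without 1 library. Uncalled genes that changed sign were DUSP6 (-0.24 thinned, -0.10 without the shallow library, -0.10 to 0.36 without 1 library), ETV5 (-0.00467 without the shallow library, -0.00467 to 0.47), FGFR4 (-0.10, and -0.46 to 0.61) and SPRY4 (0.034, and -0.59 to 0.034). The difference between the erdafitinib effects gave 0 calls in every edgeR fit and 1 with DESeq2.

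Same-numbered combination and 4-OHT libraries correlated in their deviations from the group mean at -0.618, 0.205 and -0.400. Most of the variance of these deviations (68.2%) lay on the GC-linked axis, so the correlations cannot show whether same-numbered libraries were paired. With the replicate block 60 genes were called (33 higher, 27 lower), 47 of them among the 104, and 205 with GC and length correction added. For erdafitinib against vehicle both fits with the block called 0, and for the difference between effects 0. The cause of these shifts was not tested. The shallow 4-OHT 2 library, at 8990899 counts, limits the precision of genes with low counts.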
